A study of Canis lupus familiaris with 6 samples.

Results

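The genes described here are the NRF2 axis and the enzymes of glutathione synthesis in whole blood of Beagle dogs. They were chosen by symbol from a list of 9 genes, and 8 of the 9 were found by symbol among the 31512 genes in the deposited table. The modifier subunit of glutamate-cysteine ligase, GCLM, was not found by symbol and was not analysed here. All 8 genes passed the filter of a mean of at least 1 FPKM (fragment counts corrected for the length of the gene and the size of the library) over the 6 dogs, as did 9847 genes in all.

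The study asked how casein phosphopeptide-selenium chelate (CPP-Se), a complex of selenium with peptides from milk casein, affects the immune function of dogs. After the maintenance food, the control group was fed 30 g of a snack without CPP-Se. The CPP-Se group was fed 30 g of a test snack with 0.03% CPP-Se. All dogs were healthy adult Beagles, 1.5 years old, on the same maintenance food, and blood RNA was taken on day 30 of feeding. RNA of 3 dogs per group was sequenced, with 1 library per dog, out of 12 dogs in the trial. Blood RNA from before feeding was not analysed here, so the comparison is between dogs and not within dogs.

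NRF2, the product of NFE2L2, is a transcription factor that binds antioxidant response elements together with a small MAF protein and turns on genes for glutathione synthesis, quinone reduction and heme breakdown. KEAP1 holds NRF2 in the cytoplasm and hands it to the cullin-3 ubiquitin ligase for degradation, until oxidants or electrophiles modify its cysteines. NRF2 activity is therefore set largely by the stability of the protein, which RNA levels do not measure. Glutathione is made by glutamate-cysteine ligase and glutathione synthetase and is kept in its reduced form by glutathione reductase.

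Each library held 6598173 to 8067034 reads on genes, as recovered from the FPKM. Hemoglobin genes, which mark red cell RNA, held 48.7% to 55.9% of these reads in 5 dogs and 36.6% in CPP-Se replicate 2, which stood apart. The FPKM of that library also summed to 303449, against 458774 to 540009 in the other dogs, and the library size implied by its FPKM was 1.65 times its reads on genes, against 0.882 to 1.05 times. For the genes of the NRF2 axis and glutathione synthesis and for sums of marker genes, results that turn on this library are therefore also given rescaled. All libraries were then scaled to the same sum of FPKM. For other genes, levels per dog under this scaling are not given, and a separation of the groups may turn on this library. Of the marker genes listed for monocytes, neutrophils, T cells, B cells, cytotoxic cells, red cells and platelets, those found by symbol all had reads in at least 1 dog, while CD14, FPR1, CD247, NKG7, PF4, GP9 and GP1BA were not found by symbol. Each gene below was tested on log2(FPKM + 1) by limma, two-sided, with Benjamini-Hochberg adjustment over the 9847 genes, and was called changed at an adjusted p under 0.05 with a fold change of at least 1.5.

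By limma, none of the 8 genes was called changed between the CPP-Se and control groups, where 3 of all genes tested were called (0.0305%). NFE2L2 and NQO1 were lower in each CPP-Se dog than in any control dog, on average by 1.78-fold and 1.61-fold on the FPKM + 1 scale, and KEAP1 was slightly higher in each. With the same sum of FPKM in each library, the groups still did not overlap for NQO1 but overlapped for NFE2L2 and KEAP1. With median ratio scaling, by the median over genes of the ratio to the geometric mean of the 6 dogs, none of these 3 overlapped. The genes of glutathione synthesis and recycling, GCLC, GSS and GSR, differed between the group means by less than the spread between dogs, and HMOX1 and SRXN1 were lower on average with overlap between the groups. Without adjustment, p was under 0.05 for 2 of the 8 genes in the direction of lower levels in the CPP-Se group, against 9.1% of all genes, and for 0 of the 8 in the other direction, against 6.87%. The groups did not overlap for 2 genes that were lower, against 12.6% of all genes, and for 1 that was higher, against 10.4%. Nothing particular to the 8 genes is read from these counts. When the recovered reads were fitted with a negative binomial model instead, 3.28% of all genes were called and again 0 of the 8.

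**Figure D1:**
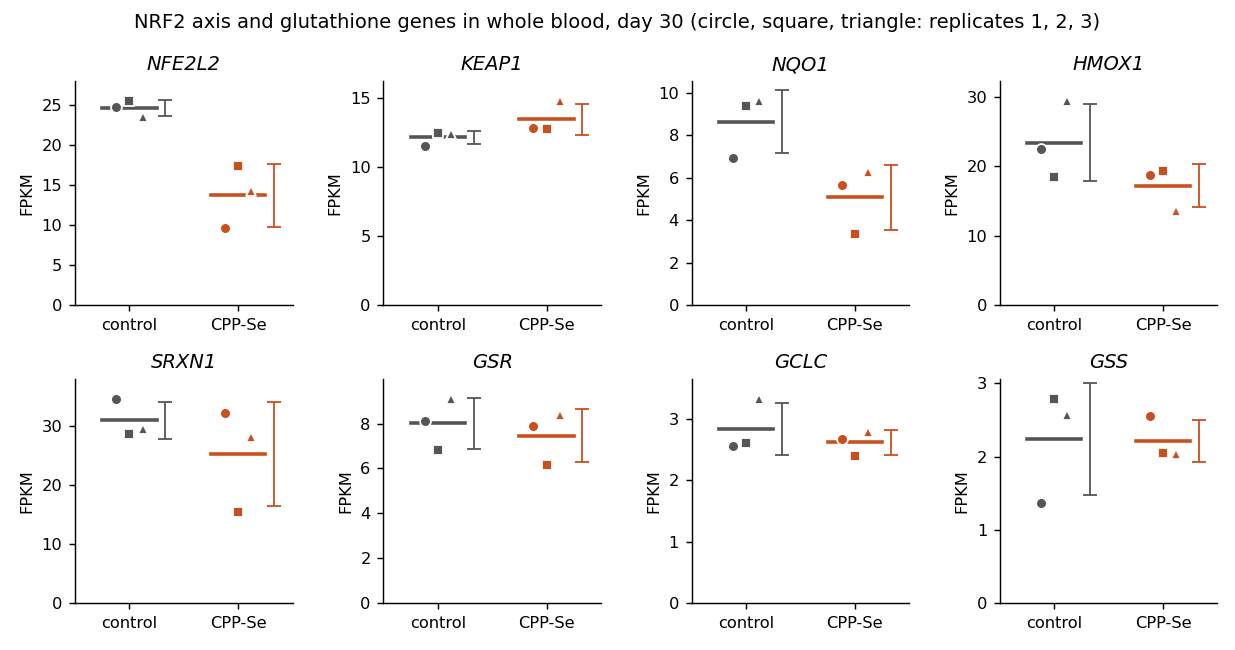
FPKM of the 8 genes in whole blood on day 30, with a point per dog, a horizontal bar for the group mean and an error bar beside it for the SD (n = 3 dogs per group). The CPP-Se dogs lie below all control dogs for NFE2L2 and NQO1 and just above them for KEAP1, and CPP-Se replicate 2 (square) is the lowest dog for SRXN1, NQO1, GSR and GCLC.

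NFE2L2 (ENSCAFG00000013506, chromosome 36, 20989360 to 21012524 of the dog genome of Ensembl release 100, minus strand) encodes NRF2 itself. Its level was 24.8, 25.5 and 23.6 FPKM in control replicates 1, 2 and 3, and 9.60, 17.4 and 14.2 FPKM in CPP-Se replicates 1, 2 and 3. The 3 control dogs were close together, while the CPP-Se dogs were spread over a wider range below them. The mean was 24.6 ± 0.964 FPKM for controls and 13.7 ± 3.93 FPKM with CPP-Se (mean ± SD of n = 3 dogs, as for all genes). The coefficient of variation was 3.92% in the control group, below the 5.37% that counting alone gives at these reads, and 28.6% in the CPP-Se group, above the 7.31% from counting. NFE2L2 was lower by 0.83 on the log2 scale (log2 fold change -0.83, standard error 0.23, adjusted p = 0.183 from limma), with a 95% interval of 1.23-fold to 2.57-fold lower for FPKM + 1 before adjustment for the number of genes. It ranked 372 of 9847 genes by p. The lone CPP-Se dog at 9.60 FPKM had 123 reads on the gene, the fewest, and without it the log2 fold change was -0.61. With the same sum of FPKM, CPP-Se replicate 2 became the highest of all dogs, at 26.3 FPKM against 22.5 to 23.9 FPKM in the control dogs, while CPP-Se replicates 1 and 3 were below them at 8.83 and 12.05 FPKM.

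KEAP1 (ENSCAFG00000017784, chromosome 20, 50650711 to 50658496, plus strand), the inhibitor that targets NRF2 for degradation, varied by less than 10% in either group. Its level was 11.6, 12.5 and 12.4 FPKM in the control dogs and 12.9, 12.8 and 14.8 FPKM in the CPP-Se dogs. The CPP-Se dogs were all above the control dogs, but the lowest of them exceeded the highest control dog only slightly. The log2 fold change was 0.14 (standard error 0.16, adjusted p = 0.727 from limma), and the coefficients of variation of 4.16% and 8.39% were near those from counting (6.37% and 5.78%). With the same sum of FPKM the log2 fold change was 0.28 and the groups overlapped, and it was 0.071 without CPP-Se replicate 3.

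The ratio of NFE2L2 to KEAP1 is taken within a library and does not depend on how libraries are scaled. In FPKM, NFE2L2 was 2.14, 2.04 and 1.90 times KEAP1 in control replicates 1, 2 and 3. In the CPP-Se dogs the ratio was 0.745, 1.37 and 0.962, so that NFE2L2 was below KEAP1 in FPKM in 2 of the 3 dogs. A ratio of RNA levels does not give the ratio of the proteins. The mean log2 ratio was 1.02 ± 0.0878 in the control group and -0.01 ± 0.439 in the CPP-Se group, a difference of -1.03. The groups did not overlap, and the exact permutation test, two-sided, gave p = 0.1, which is the smallest p that 3 dogs against 3 can give. This was the only ratio tested.

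**Figure D2:**
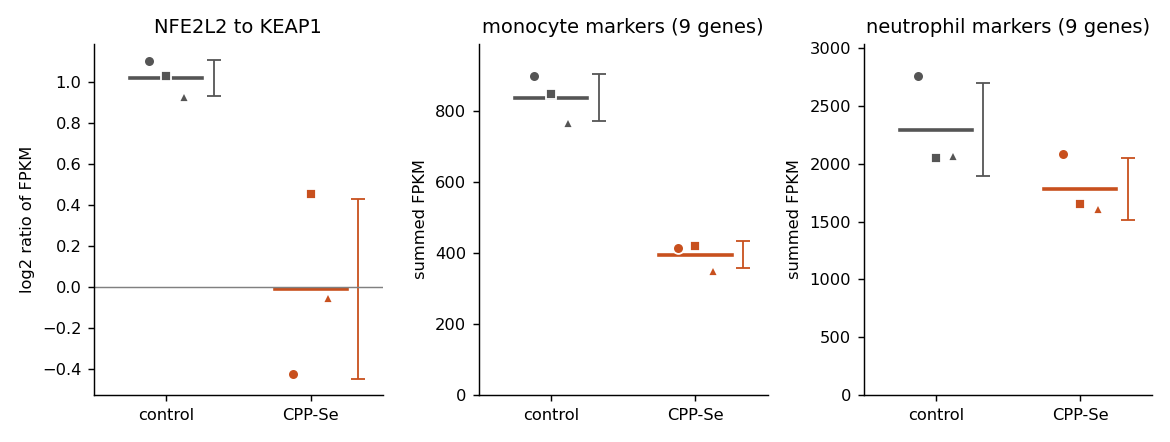
Log2 ratio of NFE2L2 to KEAP1 FPKM, and summed FPKM of 9 monocyte and 9 neutrophil marker genes, with a point per dog, the group mean as a horizontal bar and the SD as an error bar beside it. The ratio and the monocyte sum are lower in all 3 CPP-Se dogs than in any control dog, while the neutrophil sums overlap.

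NFE2L2 is strongly expressed in myeloid cells, and myeloid marker genes were lower beside it. The sum of 9 monocyte marker genes (among them CSF1R, CD163 and LYZ) was 765 to 898 FPKM in the control dogs and 350 to 420 FPKM in the CPP-Se dogs, without overlap, and LYZ made up 60.5% of it. All 7 of these genes that were tested were lower in the CPP-Se group, with a median log2 fold change of -0.97, 6 of them with an unadjusted p under 0.05 and 0 called. The sum of 9 neutrophil marker genes was 2054 to 2762 FPKM in the control dogs and 1607 to 2088 FPKM in the CPP-Se dogs, with overlap. Of its 7 genes tested, 6 were lower, with a median log2 fold change of -0.89 close to that of the monocyte list, 3 of the 7 with an unadjusted p under 0.05 and 0 called. The T cell, B cell and cytotoxic cell sums were instead higher in every CPP-Se dog than in any control dog, at 163 to 222, 426 to 467 and 20.4 to 31.7 FPKM against 81.4 to 145, 278 to 398 and 7.75 to 15.9 FPKM. CD79A alone made up 80.6% of the B cell sum, and the B cell sums overlapped with the same sum of FPKM but not with median ratio scaling. The red cell sums (1395 to 3607 and 2320 to 3468 FPKM) and platelet sums (611 to 1329 and 460 to 1617 FPKM) of control and CPP-Se dogs overlapped. The part of these lists in the level of NFE2L2 was not tested. In bulk blood RNA, fewer cells of a type and less RNA per cell cannot be told apart.

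Of the NRF2 target genes in the set, NQO1 (ENSCAFG00000020252, chromosome 5, 79978865 to 79989860, plus strand) encodes NAD(P)H quinone dehydrogenase, which reduces quinones to hydroquinones. Its level was 6.95, 9.37 and 9.58 FPKM in the control dogs and 5.64, 3.35 and 6.25 FPKM in the CPP-Se dogs. The lowest control dog and the highest CPP-Se dog were close, with 88 and 71 reads on the gene. NQO1 had means of 8.63 ± 1.47 and 5.08 ± 1.53 FPKM and was 1.61-fold lower (log2 fold change -0.69, standard error 0.25, adjusted p = 0.253 from limma), with a 95% interval of 1.08-fold to 2.39-fold lower for FPKM + 1. Without CPP-Se replicate 2, the dog at 3.35 FPKM, the log2 fold change was -0.46.

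HMOX1 (ENSCAFG00000001711, chromosome 10, 28743795 to 28751773, minus strand) encodes heme oxygenase, which breaks heme down to biliverdin, carbon monoxide and iron, and which among blood leukocytes is best known from monocytes. Its level was 22.4, 18.4 and 29.3 FPKM in the control dogs and 18.8, 19.3 and 13.6 FPKM in the CPP-Se dogs, so the groups overlapped. The log2 fold change was -0.41 (standard error 0.23, adjusted p = 0.431 from limma), and a 95% interval from 1.93-fold lower to 1.09-fold higher for FPKM + 1 included no change. Without control replicate 3, the highest dog, the log2 fold change was -0.24, without CPP-Se replicate 3, the lowest, it was -0.26, and with the same sum of FPKM it was -0.26. By its coefficient of variation, HMOX1 varied among the control dogs by 23.7%, against 6.14% from counting, more than NFE2L2 or NQO1 did. The monocyte sums given above were lower in the CPP-Se dogs also beside this gene, and their part in it was not tested.

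SRXN1 (ENSCAFG00000028688, chromosome 24, 20232607 to 20237154, plus strand) encodes sulfiredoxin, which repairs peroxiredoxins that have been oxidized too far. It had the highest mean FPKM of the 8 genes in both groups, with values of 34.5, 28.6 and 29.5 for controls against 32.2, 15.3 and 28.1 with CPP-Se. CPP-Se replicates 1 and 3 lay within or next to the control range, and replicate 2 was far below it. With the same sum of FPKM, replicate 2 was at 23.1 FPKM beside replicate 3 at 23.8 FPKM, the lowest control dog was at 25.3 FPKM and the log2 fold change was -0.19. The log2 fold change was -0.34 (standard error 0.28, adjusted p = 0.593 from limma), and without CPP-Se replicate 2, the dog with the lower hemoglobin share, it was -0.03. Its gene model is 646 bases long, and its FPKM rested on 111 to 153 reads per dog.

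GCLC (ENSCAFG00000002288, chromosome 12, 21000792 to 21047779, minus strand) encodes the catalytic subunit of glutamate-cysteine ligase, which joins glutamate and cysteine in the step that limits the rate of glutathione synthesis. Its level was 2.57, 2.61 and 3.33 FPKM in the control dogs and 2.67, 2.40 and 2.79 FPKM in the CPP-Se dogs. The groups overlapped, and at 38 to 73 reads per dog the coefficient of variation in the CPP-Se group, 7.69%, was below the 14.7% that counting gives. The log2 fold change was -0.08 (standard error 0.19, adjusted p = 0.879 from limma), and 0.038 when the libraries were scaled to the same sum of FPKM, which moved the median of all genes by 0.13. Relative to that median, GCLC was at -0.09 with the same sum of FPKM and at -0.07 without it. The 95% interval on the log2(FPKM + 1) scale ran from -0.52 to 0.36.

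GSS (ENSCAFG00000007671, chromosome 24, 23901045 to 23997286, minus strand) encodes glutathione synthetase, which adds glycine to complete the tripeptide. It had the lowest mean FPKM of the 8 genes in both groups, with values of 1.37, 2.79 and 2.57 for controls against 2.55, 2.05 and 2.04 with CPP-Se. Control replicate 1, with 39 reads, was the lowest of all dogs, and the other dogs were close together. The log2 fold change was 0.01 (standard error 0.25, adjusted p = 0.982 from limma), with a 95% interval of -0.56 to 0.58, and without control replicate 1 the log2 fold change was -0.20. ACSS2 lies within GSS on the other strand (23928838 to 23972651) and had 530 to 1115 reads per dog. As the use of strand in the counting is not stated, the reads of GSS are uncertain.

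GSR (ENSCAFG00000006478, chromosome 16, 33633968 to 33679752, plus strand) encodes glutathione reductase, which returns oxidized glutathione to its reduced form with NADPH. Its level was 8.13, 6.81 and 9.09 FPKM in the control dogs and 7.87, 6.14 and 8.39 FPKM in the CPP-Se dogs, ranges that largely overlapped. The log2 fold change was -0.09 (standard error 0.19, adjusted p = 0.859 from limma), with a 95% interval of -0.54 to 0.36, and was 0.045 with the same sum of FPKM, or -0.08 relative to the median of all genes under that scaling. UBXN8 overlaps GSR on the other strand, with 2 to 18 reads per dog against 94 to 177 on GSR.

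**Figure D3:**
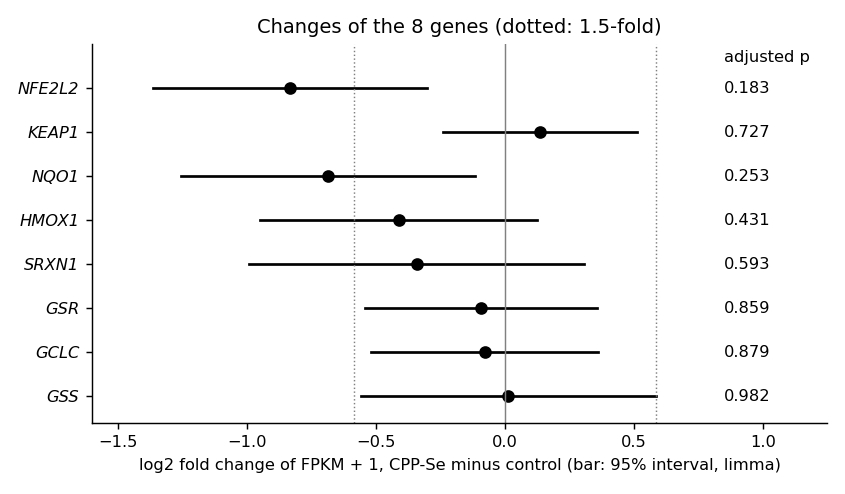
Log2 fold change of FPKM + 1 between the CPP-Se and control groups for the 8 genes, with 95% intervals from limma (3 dogs per group) and adjusted p-values at the right; dotted lines mark a 1.5-fold change. The intervals of NFE2L2 and NQO1 lie below 0, those of the other 6 genes include it, and every adjusted p is at least 0.183.

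FPKM are scaled by gene length, so levels can be set side by side. In the control group the order of the mean FPKM was SRXN1, NFE2L2, HMOX1, KEAP1, NQO1, GSR, GCLC and GSS. NFE2L2 and HMOX1, NQO1 and GSR, and GCLC and GSS overlapped as neighbours in that order, and the other neighbours were apart in all 3 dogs. In the CPP-Se group HMOX1 stood before NFE2L2 and GSR before NQO1, and SRXN1, HMOX1, NFE2L2 and KEAP1 overlapped with their neighbours, as did GSR with NQO1 and GCLC with GSS. The enzymes of the synthesis pathway were thus the lowest genes in both groups, with GCLC at the 30.1 and GSS at the 23.4 percentile of mean FPKM among all genes tested, against 80.5 for NFE2L2 and 86.0 for SRXN1.

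Control replicate 3 was the highest dog for GCLC, GSR, HMOX1 and NQO1, and was above the mean of the 6 dogs, on the log2 scale, for 7 of the 8 genes. CPP-Se replicate 2 was the lowest dog for GCLC, GSR, NQO1 and SRXN1 and was below that mean for all 8 genes. With the same sum of FPKM it was instead the highest dog for NFE2L2, KEAP1, GCLC, GSR and GSS, and it stayed the lowest for NQO1 and SRXN1. For NFE2L2 in the deposited FPKM, CPP-Se replicate 2 was the highest of the CPP-Se dogs, and the lowest was CPP-Se replicate 1. The median log2 fold change of the 8 genes was -0.22, against -0.004 over all genes tested, and the median size of the change was 0.24, against 0.28.

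The pattern of NFE2L2 over the 6 dogs was compared with that of 2671 other tested genes with a symbol and a mean of at least 10 FPKM, by the root mean square difference of log2(FPKM + 1) after subtracting each gene's mean. The nearest were BCL6, HIPK3, DPYD, LRG1 and PTPN1, with differences of 0.083 to 0.105, against a median of 0.543. BCL6, a transcriptional repressor, had 73.4, 77.3 and 73.4 FPKM in the control dogs and 31.0, 49.7 and 38.2 FPKM in the CPP-Se dogs, the same order of dogs as NFE2L2 within the CPP-Se group. None of the 5 was called, and their log2 fold changes were -0.93 to -0.78. As the 5 were picked for this likeness in the deposited FPKM, fold changes near that of NFE2L2 and a like order of dogs follow from the choice. Of the other 7 genes of the set, HMOX1 was nearest to NFE2L2, at 0.421, and KEAP1 (0.540) was about as far as the median gene.

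Other genes of the pathway were taken from 3 lists. Of 13 partners and regulators of NRF2, 11 were tested and 0 were called, with 8 lower and 3 higher in the CPP-Se group and a median log2 fold change of -0.18. MAFF, a small MAF protein that can pair with NRF2, had 4.33, 5.32 and 2.57 FPKM in the control dogs and 2.08, 0.775 and 1.69 FPKM in the CPP-Se dogs (log2 fold change -1.01, adjusted p = 0.197 from limma), on 7 to 23 reads per dog. At this low level the size depended on the processing, with log2 fold changes of -1.41 with a pseudocount of 0.1, -1.48 in the negative binomial model and -1.59 with limma-voom. SQSTM1 (p62), which competes with NRF2 for KEAP1, was also lower without overlap in the deposited FPKM (-0.54, adjusted p = 0.312). That separation depends on how CPP-Se replicate 2 is scaled. With the same sum of FPKM its log2 fold change was -0.39 (unadjusted p = 0.322 from limma), and it was -0.35 without CPP-Se replicate 3. In the deposited FPKM, MAFF and SQSTM1 had an unadjusted p under 0.05, of 11 tested, where the share over all genes was 9.1%. NFE2, a relative of NRF2 from the erythroid and platelet lineage, was the next gene by size of change (-0.49, adjusted p = 0.431), with overlap, while CUL3 and RBX1, parts of the ligase that KEAP1 serves, had log2 fold changes of -0.06 and -0.10.

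Of 20 further target genes of NRF2, 17 were found by symbol and 14 tested, and 0 were called. The median log2 fold change was -0.36, with 9 lower and 5 higher in the CPP-Se group, and 4 of the 14 were lower and 0 higher with an unadjusted p under 0.05, against 9.1% and 6.87% of all genes, of which 50.4% were lower. TXNRD1, a thioredoxin reductase and itself a selenoenzyme, had 23.7, 21.1 and 18.0 FPKM in the control dogs and 14.0, 12.6 and 14.2 FPKM in the CPP-Se dogs. Its groups did not overlap in the deposited FPKM, and its log2 fold change was -0.58 (adjusted p = 0.202 from limma). PGD, an NADPH-forming enzyme, had -0.56 (adjusted p = 0.253), also without overlap in the deposited FPKM. In CPP-Se replicate 2, with its low sum of FPKM, PGD was at 331 FPKM, against 417 to 483 FPKM in the control dogs. The separations of TXNRD1 and PGD depend on how that library is scaled. With the same sum of FPKM, the log2 fold change of TXNRD1 was -0.43 (unadjusted p = 0.22 from limma). SLC7A11, the cystine carrier that feeds glutathione synthesis, had 1.79, 1.20 and 1.97 FPKM in the control dogs and 0.478, 1.15 and 0.083 FPKM in the CPP-Se dogs (log2 fold change -0.80, adjusted p = 0.289), on 1 to 31 reads per dog. With a pseudocount of 0.1 in place of 1 its log2 fold change was -1.76, and it was -1.66 with limma-voom and -1.45 in the negative binomial model. The ferritin genes FTL and FTH1 had -0.44 and -0.48 with overlap, and PRDX1 and EPHX1 had the largest values in the other direction, 0.52 each, also with overlap.

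Of 28 genes of glutathione transfer and turnover, 21 were found by symbol and 16 tested, and 0 were called by limma. Here 6 were lower and 10 higher, with a median log2 fold change of 0.12, while an unadjusted p under 0.05 belonged to 3 of the 16 that were lower and 1 that was higher, against 9.1% and 6.87% of all genes. OPLAH, the oxoprolinase that returns oxoproline from spent glutathione to glutamate, had 4.93, 5.91 and 4.48 FPKM in the control dogs and 29.2, 11.6 and 14.2 FPKM in the CPP-Se dogs. Each CPP-Se dog was above all control dogs, and at 1.56 (standard error 0.32, adjusted p = 0.138 from limma) its log2 fold change was the largest of the 3 lists. MGST1, a microsomal glutathione transferase, had 27.2, 26.2 and 15.8 FPKM in the control dogs and 8.23, 12.4 and 11.6 FPKM in the CPP-Se dogs (log2 fold change -1.01, adjusted p = 0.171). ANPEP, a myeloid surface aminopeptidase that can split the dipeptide left from glutathione, had -0.96 (adjusted p = 0.183) without overlap, and HAGH, a glyoxalase that releases glutathione, had -0.62 (adjusted p = 0.295), also without overlap. The negative binomial model called OPLAH, MGST1 and ANPEP, the 3 it called of the 41 genes tested from the lists, against 3.28% of all genes. GSTP1, a cytosolic glutathione transferase, had a log2 fold change of 0.00, with 19.3 and 19.4 FPKM as group means.

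**Figure D4:**
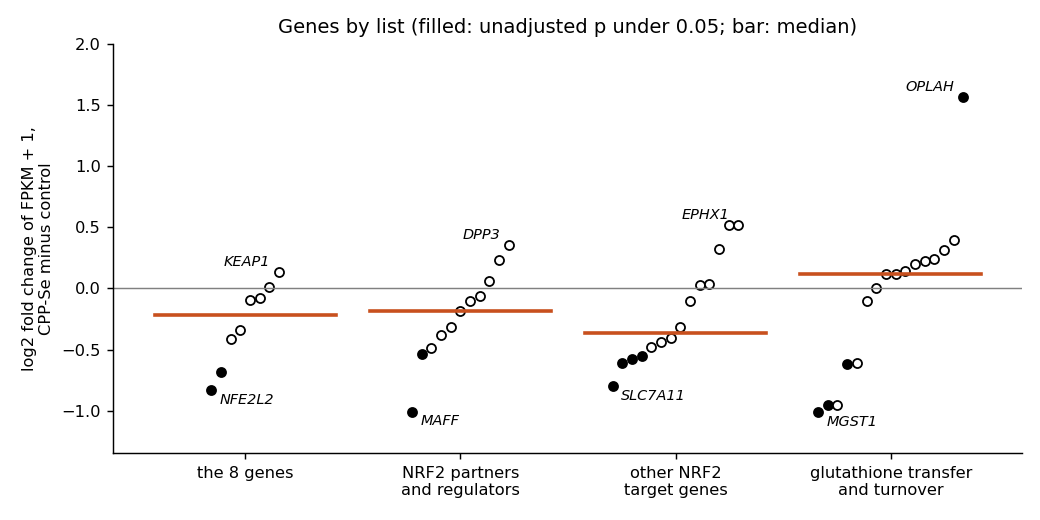
Log2 fold change of FPKM + 1 for each tested gene of the set and of the 3 pathway lists, with filled points for an unadjusted p under 0.05 and an orange bar for the median of the list. Points of the partners and other targets lie mostly below 0, while those of glutathione transfer and turnover lie on both sides, from MGST1 at -1.01 to OPLAH at 1.56.

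**Figure D5:**
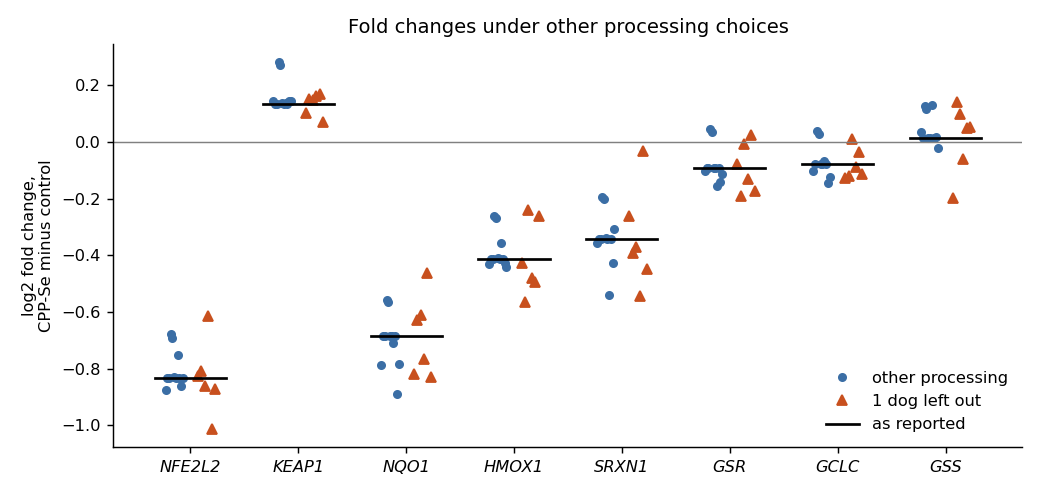
Log2 fold change of the 8 genes as reported (black bar), under 11 other processing choices (circles) and with each dog left out in turn (triangles). NFE2L2 stays between -1.01 and -0.61 and NQO1 below 0 throughout, while GSR, GCLC and GSS lie on both sides of 0.

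NFE2L2 was lower in the CPP-Se group under all 17 alternatives, with log2 fold changes from -1.01 to -0.61 and adjusted p from 0.0690 to 0.632. The lowest adjusted p was that of the negative binomial model and the highest that of libraries scaled to the same sum of FPKM. That scaling moved the median of all genes by 0.13 on the log2 scale, and relative to this median NFE2L2 stayed at -0.81. NQO1 was lower under all 17 as well, with adjusted p from 0.185 to 0.636, and no gene of the set was called under any of them. The unadjusted p of NQO1 was under 0.05 except with the same sum of FPKM or without control replicate 2, control replicate 3 or CPP-Se replicate 2, and that of NFE2L2 except with the same sum of FPKM.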

How the data were processed

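Whole blood RNA of 3 control and 3 CPP-Se dogs was compared. The authors extracted RNA with Trizol, enriched poly-A RNA and built NEBNext Ultra libraries. Per the submitters' notes, fastp 0.19.7, HISAT2 2.0.5 and featureCounts 1.5.0-p3 were used, with the Ensembl release 100 dog genome, and the deposited FPKM of the authors are the values used here. The handling of strand and shared reads is not given in the sources used here. Reads were recovered by dividing FPKM times gene length by the smallest step of each library (whole within 0.05 read). Dogs were grouped by their labels.

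Genes that averaged 1 FPKM or more were tested on log2(FPKM + 1) with limma 3.58.1 in R 4.3.3 (lmFit, eBayes with an intensity trend). Intervals are at 95%. The negative binomial model was fitted in Python 3.11.15 with numpy 2.4.6 and scipy 1.17.1, with group means, library sizes taken from the FPKM steps and dispersions shrunk to a trend. Fits were tested on simulated data with 200 changed genes, with larger changes than those of the set and the same dispersion for all genes. That test does not show how well the fits do on these data. Counting error was taken as that of a Poisson count and covers counting only. Alternatives were another pseudocount, other filters and scalings, no trend, array weights, a replicate block, limma-voom, the negative binomial model and each dog left out. Named were all genes of the set, the 3 largest changes of each pathway list and the 5 genes nearest to NFE2L2; other list genes were chosen after their values were seen, and 1 gene that this rule names is not reported here. The members and lists were chosen with earlier results of these data known. A planned ratio of GCLC to GCLM could not be computed without GCLM.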

Additional observations from a re-analysis of the deposited data

How the results depend on the processing

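No gene of the set passed the threshold under any of the 17 alternatives, and 125 of 134 fold changes of the set kept their direction. GCLC and GSR turned to 0.038 and 0.045 with the same sum of FPKM and to 0.028 and 0.036 with that sum taken without hemoglobin, scalings that moved the median of all genes by 0.13 and 0.12, and relative to that median both stayed below 0, at -0.09 and -0.08 under each. GSS turned to -0.021 in the negative binomial model. With each dog left out, GCLC ranged from -0.13 to 0.011, GSR from -0.19 to 0.026 and GSS from -0.20 to 0.14. Over all genes, 3 calls became 0 with a pseudocount of 0.1 or no filter on level, 1 with a mean of at least 5 FPKM, 1 with the replicate block, 1 with limma-voom, 14 with the same sum of FPKM, 323 in the negative binomial model and 0 to 14 with a dog left out, with 14 without CPP-Se replicate 2. The cause was not tested. From the pathway lists, the negative binomial model called 3 genes. Same-numbered dogs did not deviate together (Pearson correlations across genes of 0.016, -0.090 and -0.043), so the numbers were not taken as pairs, and the replicate block changed no call in the set. Precision is limited by 3 dogs per group and, for GCLC and GSS, by 38 to 114 reads per dog.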

Other observations

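As a description chosen after the values were seen, with no test, 3 genes of the set were also set against the summed FPKM of the monocyte and neutrophil markers in the same library. Per 1000 FPKM of monocyte markers, NFE2L2 was at 27.6 to 30.8 in the control dogs and 23.2 to 41.5 in the CPP-Se dogs, so the groups overlapped. Per 1000 FPKM of neutrophil markers it was at 8.99 to 12.4 and 4.60 to 10.6, also with overlap. NQO1 overlapped on both scales, at 7.74 to 12.5 against 7.99 to 17.9 per 1000 FPKM of monocyte markers and 2.51 to 4.62 against 2.03 to 3.89 per 1000 FPKM of neutrophil markers. HMOX1 was at 21.7 to 38.3 per 1000 FPKM of monocyte markers in the control dogs and 38.9 to 45.9 in the CPP-Se dogs, where the CPP-Se dogs were above all control dogs. Against neutrophil markers, HMOX1 overlapped (8.12 to 14.2 and 8.47 to 11.7). LYZ held most of the monocyte sum, so these values follow that gene closely.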
